A study of Homo sapiens with 12 samples.

Results

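AP-1 is described here through the 8 genes of the family named for this work: the Fos genes FOS, FOSB, FOSL1 and FOSL2, the Jun genes JUN, JUNB and JUND, and ATF3. They were taken by symbol from a table of 37471 genes, and all 8 were found. With a mean of at least 1 FPKM over the 12 libraries, 7 of the 8 members, and 9778 genes of the table, were tested. FOSB averaged 0.811 FPKM and was not. FPKM (fragments per kilobase of transcript, relative to all mapped fragments) is a level per transcript length, so that levels can be set side by side between genes.

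The cells were CAL62, a line from an anaplastic thyroid carcinoma, and the measurement was polyA RNA sequencing. In one CAL62 line doxycycline induces mature hsa-miR-139-5p, and in its isogenic counterpart doxycycline induces a scrambled, non-targeting control. Each line was sampled untreated (0 h) and after 96 h with 1 µg/ml doxycycline, which gave 4 groups of 3 libraries: the untreated and treated miR-139 line and the untreated and treated scrambled line. All 4 groups carry an inducible construct, and both treated groups received doxycycline. In each group the 3 table columns end in the tags C, NE and TR, whose meaning is not given in the sources used here. The labels do not say that the libraries came from separate cultures, so p-values cover only how far these libraries spread, and that spread may be technical.

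AP-1 is a dimer of basic leucine zipper proteins. Jun proteins pair with each other or with Fos proteins, Fos proteins need a Jun partner, and the dimers bind the DNA motif TGACTCA. FOS, FOSB, JUN and JUNB are immediate early genes that growth factors and stress induce through MAP kinases, FOSL1 (the protein FRA1) is typical of cells with sustained ERK signalling, and JUND is expressed in many resting cells. ATF3 is a stress-induced relative that pairs with Jun proteins. FOS has been reported as a target of miR-139-5p, and a miRNA acts on transcripts that pair with its seed, usually in the 3′ UTR.

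The mature miRNA is shown with the 3′ UTR stretches of the 2 members that match its seed over all of bases 2 to 8. Shorter matches are counted below. HNRNPF, the splicing regulator named in the series' title, is added for comparison. The design text already states its decrease, so it is no independent check of the induction. Capitals mark the seed (bases 2 to 8) in the miRNA and the complementary site ACTGTAG in the transcripts, all written 5′ to 3′.
hsa-miR-139-5p: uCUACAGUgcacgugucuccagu
FOS: tatatccatgtACTGTAGtttttcttcaac
JUN: ctgcaatagagACTGTAGattgcttctgta
HNRNPF: acaatactaatACTGTAGgaattggtgagg

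The miRNA sequence is RefSeq's, at chr11:72615102-72615124 on the minus strand of GRCh38.p14. The FOS site lies at chr14:75281950-75281956 (GRCh38, plus strand, GENCODE) in exon 4 of 4, at bases 526 to 532 of an 806-base 3′ UTR. The JUN site lies at chr1:58781692-58781698 on the minus strand, in the single exon of the gene, at bases 377 to 383 of a 1287-base 3′ UTR. The base after the JUN site is an A, which makes it an 8-mer, whereas the sites of FOS and HNRNPF are 7-mers. The HNRNPF site is at chr10:43386151-43386157, minus strand, in exon 4 of 4. The other 6 members, FOSB, FOSL1, FOSL2, JUNB, JUND and ATF3, held 0 such sites in their longest annotated 3′ UTR. A shorter 6-base match, CTGTAG, which leaves out base 8 of the miRNA, occurred 1 time in FOSL2. It occurred 2 times in FOS and 3 times in JUN, with their longer site included. Of all 19076 protein-coding genes with a 3′ UTR, 10.2% held the site, and of the 7610 tested genes matched by symbol, 11.4% did. A match is a description of the letters and does not show that the miRNA binds there.

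FOSL1 was by far the most abundant member. Its level averaged 226 FPKM over the 12 libraries, and it ranked 330 among all genes of the table. JUND followed with a mean level of 81.7 FPKM, JUN with 42.0, JUNB with 28.1, FOSL2 with 14.3, FOS with 11.2, ATF3 with 3.81 and FOSB with 0.811 FPKM. FOSL1 exceeded JUND in 12 of 12 libraries, JUND exceeded JUN in 12, FOS exceeded ATF3 in 12 and ATF3 exceeded FOSB in 12. JUN exceeded JUNB in 8 libraries and FOSL2 exceeded FOS in 8, so neither pair of neighbours kept its order throughout: by mean level over the 4 TR libraries, JUNB stood above JUN and FOS above FOSL2. JUNB exceeded FOSL2 in 11 of 12 libraries.

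**Figure D1:**
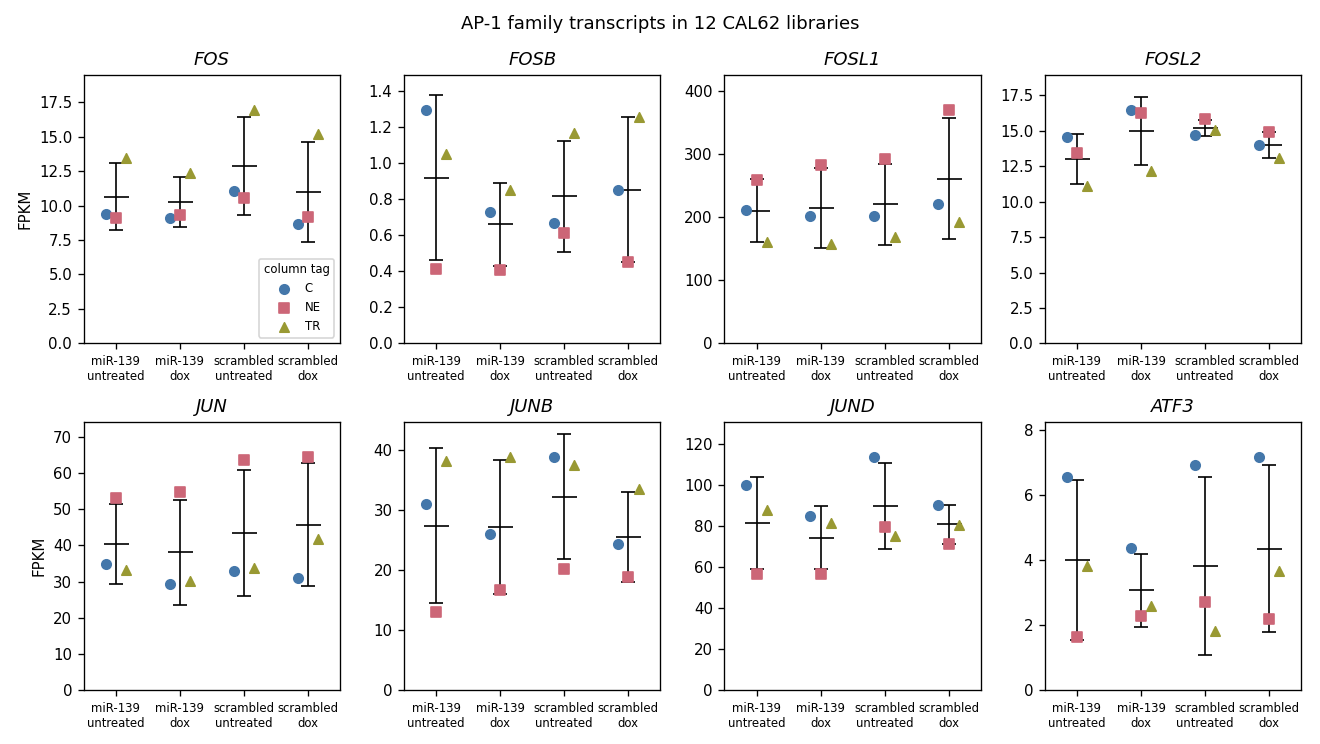
Level of each AP-1 member in FPKM (vertical axes, each with its own scale) in the 12 libraries, by group, with colour and marker for the column tag and black bars for the group mean ± SD (n = 3). FOSL1 lies between 158 and 369.9 FPKM, FOSB between 0.405 and 1.29 FPKM, and the tags separate the points more than the groups do.

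The libraries were checked against the labelled cell type. PAX8, a thyroid lineage transcription factor, averaged 107 FPKM and HHEX 32.9, while NKX2-1 was listed at 0 in every library and TSHR and SLC5A5, markers of differentiated thyrocytes, averaged 0.00106 and 0.00181 FPKM. The keratins KRT8 and KRT18 averaged 618 and 663 FPKM, and the adhesion gene CDH1 0.0362. The leukocyte genes PTPRC and CD3E and the basal keratinocyte gene KRT5 were listed at 0 in all 12 libraries. Both marker lists also held expressed genes: the leukocyte marker CD68 averaged 8.68 FPKM (5.32 to 12.6) and the keratinocyte marker KRT10 15.2 FPKM. The FPKM of the genes analysed here summed to between 534216 and 664359 per library, which is no measure of sequencing depth: the depth is unknown.

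The first comparison set the treated against the untreated miR-139 line, and no member passed the test. These groups differ in the induced miRNA, in doxycycline and in 96 h of time. HNRNPF, which the design text says decreased, was 204.7 ± 28.8 FPKM (SD, n = 3) in the untreated and 98.5 ± 13.7 in the treated miR-139 line, a log2 change of −1.05 on the log2(FPKM + 1) scale used for all changes here. In limma its adjusted p was 0.337 without and 3.61e-05 with the tag as a replicate block. In the scrambled line HNRNPF was 208.2 ± 32.6 FPKM untreated and 215.8 ± 43.3 treated.

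FOS, the reported target, was 9.35, 9.11 and 13.5 FPKM in C, NE and TR of the untreated miR-139 line, the order kept below, and 9.12, 9.30 and 12.4 FPKM in the treated ones. Both groups spanned nearly the same range, with the TR library highest in each. The change of FOS was −0.040 (log2, SE 0.24, or 0.10 with the block), and the 95% interval with the block ran from −0.26 to 0.18. FOS was lower after doxycycline in 2 of 3 tags.

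JUN, the member with the longer seed match, was 34.8, 53.1 and 33.2 FPKM untreated and 29.4, 54.9 and 30.2 FPKM treated. The NE library was the highest of its group both times, and the groups overlapped. JUN differed by −0.11 (SE 0.33, or 0.10 with the block), with a 95% interval from −0.32 to 0.11 with the block. The intervals of FOS and JUN with the block thus leave room for a change of either sign, but their lower bounds lie nearer to 0 than the −1.05 of HNRNPF.

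Among the other Fos genes, FOSL1 was 211, 259 and 160.0 FPKM untreated and 202, 282 and 158 FPKM treated, a change of 0.013 (SE 0.29, or 0.09 with the block). FOSL2, a Fos gene whose protein FRA2 lacks the strong activation domain of FOS, was 14.6, 13.4 and 11.1 FPKM untreated and 16.5, 16.3 and 12.2 FPKM treated. FOSL2 was higher after doxycycline in 3 of 3 tags, by 0.18 (SE 0.15, or 0.10 with the block), which did not pass the test. FOSB, the least abundant member, was 1.29, 0.410 and 1.05 FPKM untreated and 0.726, 0.405 and 0.850 FPKM treated. In the fit without a filter on low values FOSB differed by −0.19 (SE 0.22), and its groups overlapped.

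The Jun genes and ATF3 did not pass either. JUNB, which can act as a weaker activator than JUN, was 31.0, 13.0 and 38.2 FPKM untreated and 25.9, 16.6 and 38.8 FPKM treated, a change of 0.035 (SE 0.40, or 0.14 with the block). JUND was 100.3, 56.5 and 87.8 FPKM untreated and 84.8, 56.8 and 81.7 FPKM treated, a change of −0.11 (SE 0.23, or 0.12 with the block). In both genes the NE library was the lowest of each group. ATF3 was 6.54, 1.64 and 3.83 FPKM untreated and 4.36, 2.28 and 2.57 FPKM treated, a change of −0.20 (SE 0.45, or 0.20 with the block).

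In limma 0 of the 7 tested members were called at an adjusted p of 0.05 in this comparison, and 0 had an unadjusted p under 0.05. Of all 9778 genes, 0 (0%) were called, with 72 (0.736%) at an unadjusted p under 0.05. With the replicate block 0 of 7 members and 0.0205% of all genes were called, where 4.48% of all genes and 0 members fell under an unadjusted p of 0.05. The median change of the 7 members was −0.040, beside 0.0032 for all tested genes. Treated and untreated libraries did not overlap in 0 of the 8 members, against 4.39% of all tested genes. In bulk RNA, fewer cells expressing a gene and less RNA per cell cannot be told apart.

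The scrambled line gives the change from 0 h to 96 h of doxycycline without the miRNA. In it doxycycline, the 96 h and the induced control RNA cannot be told apart, as no untreated group was sampled at 96 h. FOS was 11.1, 10.6 and 16.9 FPKM untreated and 8.66, 9.15 and 15.2 FPKM treated, so FOS was lower in 3 of 3 tags. The change of FOS was −0.22 (SE 0.24, or 0.10 with the block, adjusted p = 0.998 in limma with the block, unadjusted p = 0.0492). The mean FOS change was therefore larger in the control line than in the miR-139 line.

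FOSL1 was 201, 292 and 168 FPKM untreated and 221, 369.9 and 192 FPKM treated in the scrambled line. It was higher in 3 of 3 tags, by 0.22 (SE 0.29, or 0.09 with the block, adjusted p = 0.998 and unadjusted p = 0.03 in limma with the block). FOSL2 was 14.7, 15.8 and 15.1 FPKM untreated and 14.0, 14.9 and 13.1 FPKM treated, lower in 3 of 3 tags, by −0.11 (SE 0.15). FOSB was 0.666, 0.612 and 1.17 FPKM untreated and 0.848, 0.453 and 1.26 FPKM treated, a difference of 0.0195 (SE 0.22) in the fit without a filter.

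JUN was 33.0, 63.6 and 33.9 FPKM untreated and 31.1, 64.5 and 41.7 FPKM treated in the scrambled line, a change of 0.077 (SE 0.33). JUNB was 38.9, 20.2 and 37.4 FPKM untreated and 24.3, 18.8 and 33.5 FPKM treated, lower in 3 of 3 tags, by −0.30 (SE 0.40, or 0.14 with the block). Most of that difference came from the C library. JUND was 114, 79.9 and 75.4 FPKM untreated and 90.5, 71.5 and 80.7 FPKM treated, a change of −0.13 (SE 0.23), and ATF3 was 6.92, 2.70 and 1.82 FPKM untreated and 7.17, 2.20 and 3.68 FPKM treated, a change of 0.19 (SE 0.45).

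No tested member was called in the scrambled line either (0 of 7 in limma, with or without the block, against 0% of all genes in both fits). At an unadjusted p under 0.05 there were 0 members without the block, where 47 genes of the table (0.481%) had one, and 2 with it, FOS and FOSL1, beside 4% of all genes. Treated and untreated groups did not overlap in 0 of 8 members, against 2.69% of all tested genes. The members' median change was −0.11, beside 0.0231 for all tested genes.

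**Figure D2:**
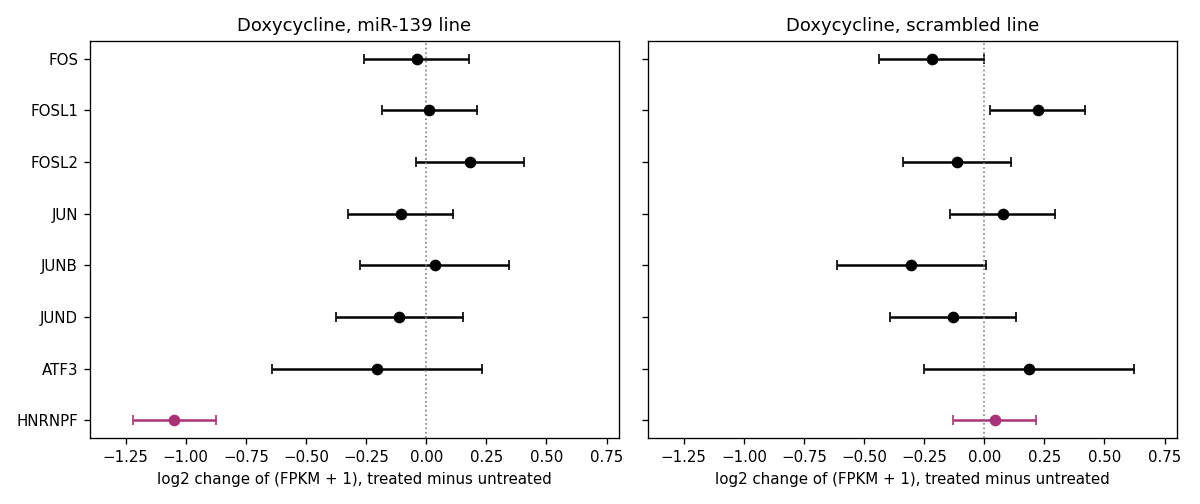
Log2 change after doxycycline in each line for the 7 tested members and HNRNPF, estimated with the replicate block, with 95% intervals. HNRNPF in the miR-139 line stands at −1.05, while the 7 members lie between −0.20 and 0.18 there and between −0.30 and 0.22 in the control line.

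The difference between the lines' changes (the interaction) sets the induced miRNA against the induced scrambled control, with 96 h and doxycycline in both lines. It was 0.18 for FOS (SE 0.34, or 0.14 with the block), −0.18 for JUN (SE 0.47, or 0.14 with the block) and 0.29 for FOSL2 (SE 0.21, or 0.15 with the block). For JUNB it was 0.34 (SE 0.56, or 0.20 with the block) and for ATF3 −0.39 (SE 0.64, or 0.29 with the block). For FOSL1 it was −0.21 (SE 0.42, or 0.13 with the block) and for JUND 0.019 (SE 0.33, or 0.17 with the block). In limma the adjusted p was 1 for all 7 tested members in both fits, and 0 members were called, with 0% of all genes called without the block and 0.0102% with it. No member had an unadjusted p under 0.05, beside 41 genes (0.419%) without the block and 3.44% of genes with it.

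The lines were also compared with each other at the same treatment. After doxycycline FOSL1 was 214 ± 63.3 FPKM (SD, n = 3) with the miRNA and 261 ± 95.4 with the scrambled control, a difference of −0.27 (SE 0.29, or 0.09 with the block, adjusted p = 0.474 in limma with the block). JUN was 38.2 ± 14.5 against 45.8 ± 17.1 FPKM, a difference of −0.25 (SE 0.33, or 0.10 with the block, adjusted p = 0.612 with the block). The difference lies within the spread of either group for both genes, but that spread includes the differences between tags. Within each tag both genes were lower with the miRNA. FOSL1 was 202, 282 and 158 FPKM against 221, 369.9 and 192, and JUN 29.4, 54.9 and 30.2 against 31.1, 64.5 and 41.7. With the block FOSL1 and JUN were the 2 members whose unadjusted p was under 0.05 (7.18% of all genes were), and without it 0 of 7 were, beside 105 genes of the table (1.07%).

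Before doxycycline FOS was 10.6 ± 2.46 FPKM in the miR-139 and 12.9 ± 3.55 in the scrambled line, a difference of −0.24 (SE 0.24, or 0.10 with the block, adjusted p = 0.928 in limma with the block). With the block FOS alone had an unadjusted p under 0.05 (4.45% of all genes did), and without it 0 members did, beside 58 genes of the table (0.593%). FOSL2 was the 1 of 8 members whose untreated groups did not overlap: its highest library of the miR-139 line, 14.6 FPKM, lay just below the lowest of the scrambled line, 14.7. Of all tested genes 2.91% did not overlap there, and the FOSL2 difference of −0.21 (SE 0.15) did not pass the test. After doxycycline 0 of 8 members were apart, against 4.19% of genes. Of the 7 tested members 0 were called in either comparison of the lines, beside 0% of genes without the block, and 0.112% after and 0% before doxycycline with it.

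The balance of the family was described by summing the levels of the 4 Fos genes and of the 3 Jun genes in each library. The Fos sum was 253 ± 62.5 FPKM (SD, n = 12) and the Jun sum 152 ± 17.0 FPKM. Their ratio was 1.69 ± 0.491, with a lowest library of 1.17 and a highest of 2.55, so the Fos sum was the larger in 12 of 12 libraries. FOSL1 made up 83.5 to 93.8% of the Fos sum, and without FOSL1 the ratio was 0.175 ± 0.0239. Without JUND in the Jun sum the ratio was 3.62 ± 0.759. FOS itself held 2.32 to 8.42% of the Fos sum.

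By group the ratio was 1.63 ± 0.594 (SD, n = 3) in the untreated and 1.75 ± 0.604 in the treated miR-139 line, and 1.51 ± 0.386 in the untreated and 1.88 ± 0.594 in the treated scrambled line. These means differ by less than the SD of any group. Within tags the ratio was higher after doxycycline in 3 of 3 in either line: in the miR-139 line it went from 1.42 to 1.63 in C, from 2.30 to 2.40 in NE and from 1.17 to 1.21 in TR. In the scrambled line it went from 1.22 to 1.67 in C, from 1.95 to 2.55 in NE and from 1.37 to 1.42 in TR. The ratio moved in the same direction in both lines, but this depended on FOSL1. Without FOSL1 the ratio in the scrambled line rose in C (0.142 to 0.161) and fell in NE (0.165 to 0.158) and TR (0.226 to 0.189). In the miR-139 line it rose in C (0.152 to 0.188), NE (0.187 to 0.202) and TR (0.161 to 0.169). These shifts and their cause were not tested, as the members of a sum were chosen with results known.

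By tag the ratio was 2.30 ± 0.255 (SD, n = 4) in NE, 1.48 ± 0.208 in C and 1.29 ± 0.121 in TR, and every NE library lay above every library of C and TR. Without FOSL1 the tags overlapped, at 0.158 to 0.202 in NE, 0.142 to 0.188 in C and 0.161 to 0.226 in TR. The makeup of the Jun sum differed as well. JUN held 41.7% of it in NE, 20.3% in C and 22.7% in TR. JUND held 46.3% in NE, 61.0% in C and 53.1% in TR, while JUNB held 10.6 to 13.0% in the NE libraries, 18.7% on average in C and 24.2% in TR. FOS held 2.97% of the Fos sum in NE, 4.09% in C and 7.32% in TR, while FOSL1 held 92.2%, 89.2% and 85.6%.

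**Figure D3:**
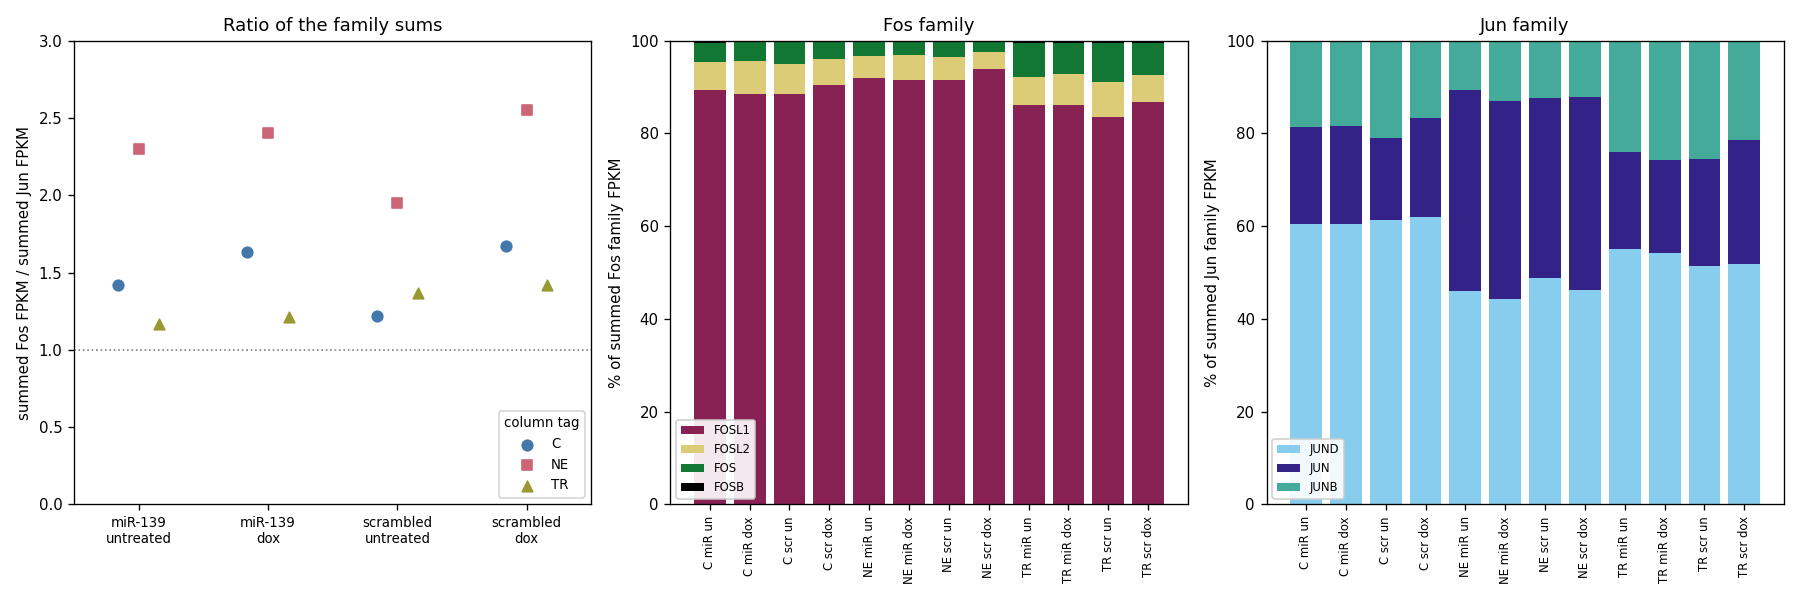
Left, the ratio of summed Fos to summed Jun levels in each library by group, with the column tag by colour and marker. Middle and right, the percent of the Fos sum and of the Jun sum that each gene holds in each library: the NE libraries have the highest ratios, 1.95 to 2.55, and the largest JUN share, 38.9 to 43.3%.

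The column tag accounted for more of the members' variation than the group did. Of the sum of squares over the 12 libraries the tag held 89.7% for JUN, 86.9% for FOSL1, 83.4% for JUNB, 81.3% for FOS and 79.7% for ATF3, beside 62.5% over all tested genes. The group held 5.36% for JUN and 14.4% for FOS, beside 13.1% over all tested genes. FOSL2 was the least tag-bound member, with 44.4% for the tag and 29.7% for the group. These shares are descriptions without a test.

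Within each group the NE library was set against the mean of C and TR, in a limma fit with group and tag. JUN was 59.0 ± 5.87 FPKM (SD, n = 4) in NE against 32.1 ± 2.31 in C and 34.7 ± 4.92 in TR, a rise of 0.80 (SE 0.08, adjusted p = 5.56e-06). FOSL1 was 300.9 ± 48.0 FPKM in NE against 209 ± 9.04 in C and 169 ± 15.9 in TR, a rise of 0.66 (SE 0.07, adjusted p = 1.04e-05). The 4 NE libraries of JUN and of FOSL1 lay above all 8 others.

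JUNB was 17.2 ± 3.12 FPKM in NE against 30.02 ± 6.56 in C and 37.0 ± 2.37 in TR, and fell by 0.92 on the log2 scale (SE 0.11, adjusted p = 2.07e-05 in limma), with all 4 NE libraries below the other 8. JUND was 66.2 ± 11.5 FPKM in NE against 97.4 ± 12.8 in C and 81.4 ± 5.06 in TR, a fall of −0.43 (SE 0.09, adjusted p = 0.00148 in limma), and its ranges overlapped. Thus JUN was higher in NE where JUNB and JUND were lower. ATF3 was 2.21 ± 0.437 FPKM in NE against 6.25 ± 1.29 in C and 2.97 ± 0.949 in TR, a change of −0.73 (SE 0.15, adjusted p = 0.00136 in limma). It was below both C and TR in 3 of 4 groups.

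FOS was 9.53 ± 0.686 FPKM in NE, 9.55 ± 1.05 in C and 14.5 ± 2.00 in TR. Its NE contrast passed at −0.28 (SE 0.08, adjusted p = 0.00797 in limma), yet NE and C had nearly equal means, and the NE library was below both others in 2 of 4 groups. FOSL2 was 15.1 ± 1.25 FPKM in NE against 14.9 ± 1.07 in C and 12.9 ± 1.68 in TR, and did not pass (0.12, SE 0.08, adjusted p = 0.222). FOSB, at 0.470 ± 0.0971 FPKM in NE, 0.883 ± 0.284 in C and 1.08 ± 0.175 in TR, was called lower in the fit without a filter on low values (−0.42, SE 0.10, adjusted p = 0.0142 in limma), and its 4 NE libraries lay below the other 8.

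In all 6 of 7 tested members were called between NE and the other tags, 2 higher and 4 lower. In the same contrast 52% of all tested genes were called, 28% higher and 24% lower, so a call there was common. The NE range lay apart from that of the other libraries in 4 of 8 members (FOSB, FOSL1, JUN and JUNB), against 24% of tested genes. Leaving out any 1 of the 12 libraries kept these 6 calls, and ATF3, at a mean of 3.81 FPKM, was no longer tested with a minimum of 5 FPKM.

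TR against C gave another pattern. FOS was higher in TR in 4 of 4 groups, by 0.55 (SE 0.09, adjusted p = 0.00108 in limma), and its TR libraries, 12.4 to 16.9 FPKM, lay above all C libraries, 8.66 to 11.1 FPKM. ATF3 was lower in TR in 4 of 4 groups, by −0.88 (SE 0.18, adjusted p = 0.00473 in limma), and was no longer called in the fit without a filter on low values (adjusted p = 0.0512). FOSL1 was lower in 4 of 4 groups, by −0.30 (SE 0.08, adjusted p = 0.0201 in limma).

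The FOSL1 call between TR and C was lost on leaving out any of 5 single libraries. Its adjusted p in limma was then 0.0947 without the untreated C and 0.0683 without the treated C library of the miR-139 line, and 0.0764 without the treated TR library of that line. It was 0.0563 without the untreated C and 0.0607 without the treated TR library of the scrambled line. JUNB, 0.31 higher in TR (SE 0.12, adjusted p = 0.0995), passed on leaving out the untreated NE library of the miR-139 line (adjusted p = 0.0382 in limma) or the untreated TR library of the scrambled line (0.0438). JUND (−0.25, adjusted p = 0.123), FOSL2 (−0.21, adjusted p = 0.131) and JUN (0.10, adjusted p = 0.441) did not pass in limma, though JUND did after quantile normalization (adjusted p = 0.0454). So 3 of 7 tested members were called, 1 higher and 2 lower, against 16.6% of all genes (8.49% higher and 8.16% lower), and TR and C ranges were apart in FOS, FOSL1 and ATF3, against 27.9% of genes.

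**Figure D4:**
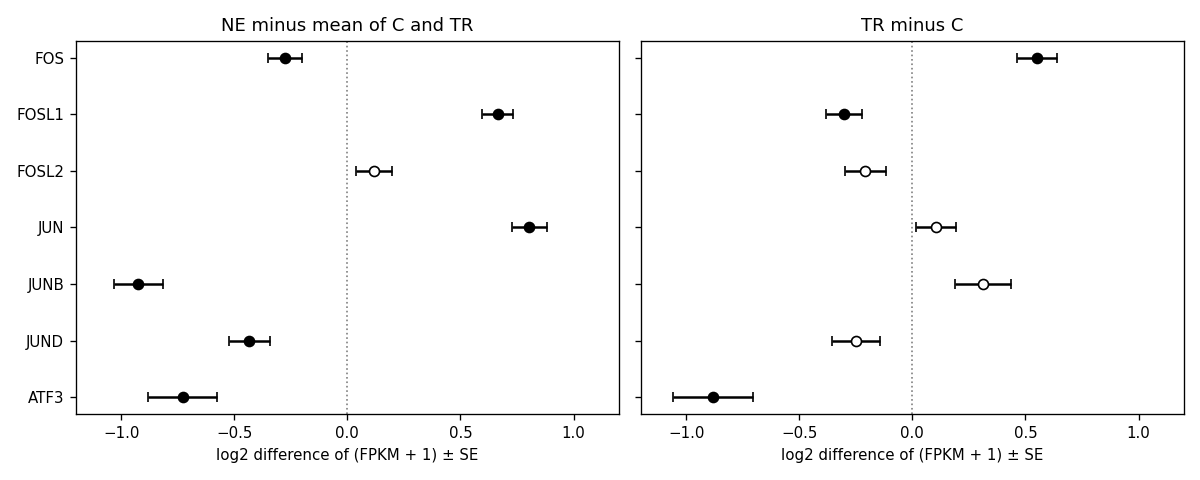
Log2 difference ± SE of the 7 tested members for NE against the mean of C and TR and for TR against C, from the fit with group and tag, with filled points for adjusted p under 0.05. JUN (0.80) and FOSL1 (0.66) lie highest and JUNB (−0.92) lowest in the NE contrast, and FOS (0.55) and ATF3 (−0.88) are the extremes of the TR contrast.

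Other properties of the libraries moved with the tags. Between 9518 and 9633 genes had at least 1 FPKM in the NE libraries, against 9804 to 9870 in C and 9803 to 9884 in TR. Mitochondrially encoded genes held 6.08 to 9.18% of the summed FPKM in NE, against 11.4 to 12.8% in C and 12.3 to 13.1% in TR. Over the 3 fibroblast markers in the table the summed level was 83.9 to 101 FPKM in TR against 33.3 to 58.5 in C and 41.6 to 57.2 in NE, nearly all of it COL1A1, with DCN at a mean of 0.0096 FPKM. Of the 4 leukocyte markers in the table, CD68 made up nearly all of the summed level, with PTPRC and CD3E at 0. Their sum was 5.32 to 6.94 FPKM in TR, 9.97 to 12.6 in C and 7.92 to 11.5 in NE. Keratinocyte markers (5 in the table, nearly all KRT10, with KRT5 and KRT1 at 0) summed to 10.0 to 11.9 FPKM in C, 13.1 to 16.3 in TR and 16.8 to 22.3 in NE. Thyroid lineage markers (6 in the table, nearly all PAX8 and HHEX, with NKX2-1 at 0) summed to 79.0 to 116 FPKM in C, 146 to 184 in NE and 145 to 175 in TR. The 5 epithelial markers, led by KRT18 and KRT8, were also lowest in C, and the 3 endothelial markers in the table summed to 0.987 to 1.42 FPKM in C, 1.80 to 3.06 in NE and 2.23 to 2.54 in TR. The part of these differences in the members' tag differences was not tested.

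The other genes of the pathway were taken from 5 lists, and no gene of any list was called in any of the 5 group comparisons, with or without the block. Without the block 0 or 1 genes of a list had an unadjusted p under 0.05 in limma, beside 0.419 to 1.07% of all genes. With the block 0 to 5 did, beside 3.44 to 7.18%. The 5 were among 16 tested immediate early genes between the treated lines, where 7.18% of all genes had one. Of those 16, 15 were lower in the miR-139 line (median −0.149), beside a median of −0.0103 for all tested genes, of which 47.2% were higher. These genes share the same libraries, so the count is a description without a test. For the 23 tested genes of other basic leucine zipper proteins (30 in the list, 26 in the table) the median change after doxycycline was −0.066 in the miR-139 line and −0.0145 with the scrambled control. ATF4, the main factor of the amino acid stress response, averaged 451 ± 68.9 FPKM (SD, n = 4) in C, 323 ± 46.8 in NE and 313 ± 40.9 in TR. XBP1, a factor of the unfolded protein response, averaged 88.1 ± 20.3 FPKM in C, 60.8 ± 8.98 in NE and 51.7 ± 8.16 in TR. By tag, 3 of the 23 were called higher and 9 lower in NE, where 28% of all tested genes were called higher and 24% lower. In TR against C 4 were called higher and 7 lower, where 8.49% of all genes were called higher and 8.16% lower; XBP1 (−0.74) and ATF4 (−0.52) were among the lower. JDP2, a repressor that pairs with Jun proteins, was −0.48 in NE and −1.37 in TR (adjusted p = 0.0335 and 0.000675 in limma). DDIT3, a stress-induced partner of C/EBP proteins, was −0.88 in NE and −1.16 in TR, and BATF, a partner of Jun proteins, was 0.68 higher in TR.

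Of 16 tested immediate early genes other than the members (32 in the list, 20 in the table), 7 were called higher and 2 lower in NE (52% of all genes were called there, in either direction), and 1 higher and 4 lower in TR (16.6% of all genes). CYR61, a matricellular growth factor-induced gene, was 693 ± 110.2 FPKM in NE, 650 ± 48.2 in C and 499 ± 62.4 in TR, and was called in both contrasts (0.27 and −0.38). RHOB was called higher in both (0.64 and 0.38). ZFP36, which promotes decay of AU-rich mRNAs, was called lower in NE (−0.41), and MCL1, an antiapoptotic gene, lower in TR (−0.34). After doxycycline the list's median change was −0.061 in the miR-139 line and 0.076 with the scrambled control.

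Among 21 tested upstream kinases and ternary complex factors (30 in the list, 22 in the table), 7 were called higher and 3 lower in NE and 2 higher in TR, beside the same 52% and 16.6% of all genes. HRAS was 95.7 ± 11.8 FPKM in NE, 50.7 ± 7.01 in C and 63.6 ± 5.49 in TR, and MAP2K1, the ERK kinase MEK1, was 56.3 ± 3.99, 38.4 ± 2.37 and 42.9 ± 1.11 FPKM in the same order. Both were called higher in NE, by 0.74 and 0.46, and so was MAP2K2 (0.26), the most abundant of the list at a mean level of 138 FPKM. ELK3 and ELK4, which bind with SRF at the serum response element, were called lower in NE (−0.25 and −0.47), and ELK1 higher (0.36). The list's median change after doxycycline was −0.0275 in the miR-139 line and 0.037 with the scrambled control.

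Of 12 tested genes that ERK signalling induces (20 in the list, 13 in the table), 2 were called higher and 1 lower in NE, a smaller share than the 52% of all genes, and 2 higher and 1 lower in TR, beside 16.6%. PHLDA2 was 0.92 higher in NE. The feedback inhibitors SPRY2 and DUSP6 were 0.63 and 0.47 higher in TR, and SPRED2, which also restrains this pathway, was lower (−0.34, adjusted p = 0.0102 in limma). CCND1, cyclin D1, averaged 159 ± 14.2 FPKM in C, 163 ± 9.81 in NE and 139.9 ± 8.39 in TR and was not called, nor was ETV4, an ETS factor with a mean level of 94.7 FPKM. The median change after doxycycline was 0.044 in the miR-139 line and −0.017 with the scrambled control.

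Of 12 tested matrix and invasion genes known to be regulated by AP-1 (25 in the list, 17 in the table), 2 were called higher and 5 lower in NE, beside 52% of all genes in either direction, and 3 higher and 1 lower in TR, beside 16.6%. VIM, the filament protein vimentin, had a mean level of 1711 FPKM and was not called. PLAU, the urokinase protease and a textbook AP-1 target, was 860.0 ± 86.4 FPKM in NE, 1222 ± 183 in C and 1831 ± 206 in TR, called lower in NE (−0.79) and higher in TR (0.59). PLAUR, the urokinase receptor, was called higher in NE (0.39). The receptor kinase AXL was called higher in NE (0.17) and lower in TR (−0.54). After doxycycline the list's median was 0.063 in the miR-139 line and −0.043 with the scrambled control.

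The genes whose profile over the 12 libraries was most like that of a member were ranked by Pearson's r of log2(FPKM + 1), as a description in which the points share their tags. For FOS these were GLI2 (r = 0.941, Spearman's rho = 0.867), DNAJC22 (0.940 and 0.895), PLEKHG4 (0.937 and 0.930), GPR56 (0.925 and 0.923) and KCNK3 (0.909 and 0.902). For FOSL1 they were COLGALT1 (r = 0.992, rho = 0.986), CIAO1 (0.985 and 1.00), ACLY (0.985 and 0.979), NLE1 (0.983 and 0.951) and ANKLE1 (0.983 and 0.965).

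Promoters, taken as 250 bases before to 50 after the annotated start in RefSeq (GRCh38.p14), were found for 7 of the 8 members, with 8 entries, as ATF3 has a pair of them. Only exact matches within these windows were searched, on both strands. The AP-1 motif TGACTCA occurred in FOSL2 alone, at bases 5 to 11 after the start, and was in 4.95% of 35116 promoters. The cAMP response motif TGACGTCA occurred in JUND alone, at bases −200 to −193, and was in 1.85%. The serum response element was in none of the 8 windows and in 1.29% of all promoters. Sites farther from the start and variants of these motifs were not searched, so a member without a match here may still hold such a site. FOSL1 was not among these entries.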

How the data were processed

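PolyA RNA of 12 CAL62 libraries was analysed from the FPKM values that the authors deposited, which carry no read counts, so the depth is unknown and gives no counting interval. Aligners in the submitters' processing notes are STAR 2.5, TopHat, TopHat2 2.0.10 and Bowtie 1.0.0, and the quantifiers HTSeq and Cufflinks, with builds GRCh37 and hg19. Which tool made the FPKM, and whether it used strand, is not stated there. These values are relative to each library's total, so a large gene group in one library lowers all others. Chromosomes 3 to 9, of which 0 protein-coding symbols matched, were not analysed here. There were 0 further sample columns. Columns were assigned to groups by name.

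Genes with a mean of at least 1 FPKM were tested in limma 3.58.1 (R 4.3.3) on log2(FPKM + 1), with a variance trend, two-sided tests and Benjamini-Hochberg adjustment over all 9778 genes at 0.05. On this scale changes of low genes are understated. Group comparisons came from a fit of the 4 group means. The tag contrasts came from a fit with group and tag. The tags pair the libraries: deviations from group means correlated in all 18 pairs with the same tag (r from 0.33 to 0.86). In the 36 other pairs r ran from −0.66 to 0.14. Deviations within a group cancel out, so these lower values follow in part from the former and are no separate evidence. The block was chosen with the column names known. The fits were tested on simulated data. For doxycycline in the miR-139 line, the fit without the block recovered 4.48% of log2 changes of 0.5, 62.7% of those of 1 and 93.9% of those of 2. With the block 50.7%, 97% and 98.5% were recovered. For NE against C and TR the shares were 70.1%, 98.5% and 100%. Changes of the smaller sizes could thus be missed, above all without the block.

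All 8 members are named, and from each list the 2 most abundant tested genes and genes called in a comparison, given as examples; for FOS and FOSL1 the 5 genes of highest r are named. The members, the lists and the tests were chosen with earlier results of these data known. The alternatives were a pseudocount of 0.1, no filter, a minimum of 5 FPKM, upper quartile scaling, quantile normalization, no variance trend, no group term, the replicate block, and leaving out each library or tag. Seed sites were searched in each gene's longest 3′ UTR (GENCODE 29, GRCh38).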

Additional observations from a re-analysis of the deposited data

Results flagged for a closer look

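FOS in the NE libraries had 1 library far from the other 3: the untreated scrambled library stood at 10.6 FPKM, against 9.11, 9.15 and 9.30 FPKM. The gap took 0.864 of the range of the 4 libraries, above the 95% critical value of Dixon's test for 4 samples. This was 1 of 24 sets of 4 libraries examined (8 members in 3 tags), and chance marks about 1 set in 20.

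FOSL2 moved in opposite directions in the 2 lines after doxycycline. It was higher in 3 of 3 tags in the miR-139 line (log2 differences of 0.17 in C, 0.26 in NE and 0.12 in TR) and lower in 3 of 3 in the scrambled line (−0.07, −0.08 and −0.19). The difference between the lines was 0.29 (SE 0.21, or 0.15 with the tag as a replicate block). It did not pass the test of the difference itself (adjusted p = 1 in limma in both fits, unadjusted p = 0.0661 with the block).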

How the results depend on the processing

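With the tag as a replicate block, as without it, 0 of 7 members were called in each of the 5 group comparisons. None was called under any other alternative run, added ones included. The block changed no call of a member, and ended none. In the tag contrasts 5 to 7 members were called in NE and 2 to 4 in TR against C over all alternatives. The mean log2 ratio of Fos to Jun sums, 0.71, was −2.53 without FOSL1 and 1.83 without JUND in its sum. The other 178 values of these kinds stayed within 1.5 times the count reported, or within 1 SD over libraries for the ratio. Of the single members' values 835 were the same, 6 fell short of the threshold, 3 came to pass it and 30 changed sign, all of the last kind in group comparisons where no call was made, and the cause was not tested. For FOSL1 in the miR-139 line the change was −0.0081 after quantile normalization, with or without the block, and −0.042 with the block and no NE libraries, which also gave −0.11 for JUNB. With the block and no TR libraries the scrambled line gave −0.083 for ATF3 and −0.031 for JUN. Leaving out 1 library at a time, the change in the miR-139 line ran from −0.17 to 0.13 for FOS, −0.21 to 0.21 for FOSL1, −0.39 to 0.10 for JUN, −0.41 to 0.33 for JUNB, −0.35 to 0.070 for JUND and −0.60 to 0.16 for ATF3. In the scrambled line it ran from −0.058 to 0.44 for FOSL1, −0.20 to 0.38 for JUN, −0.24 to 0.053 for JUND and −0.17 to 0.62 for ATF3. The interaction ran from −0.023 to 0.41 for FOS and −0.11 to 0.64 for JUNB. The interactions of FOSL1, JUN and JUND were not included in these ranges or in the counts of single members' values above, so their stability is not shown. Between the treated lines FOSL1 ran from −0.49 to 0.014 and JUN from −0.54 to 0.021. Depth is unknown, FOSB lay below the level tested and ATF3 not far above it, and 3 libraries per group, with tags that differ widely, leave unblocked errors of 0.15 to 0.45 on the log2 scale.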
